A study of Mus musculus with 7 samples.

Results

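The 38 genes described here are the protein-coding genes of the chemokine ligand family, taken by symbol as Ccl or Cxcl followed by a number, Xcl1 and Cx3cl1, out of 37310 genes with counts. They carry 37 symbols, because Ccl25 has 2 gene identifiers in the annotation. Of the 38 genes, 27 had at least 5 counts in at least 4 of 7 libraries and were tested, 11 did not, and 2 of those 11 had no count in any library. Cxcl11 is annotated as a processed transcript in this annotation and is therefore not among the 38, with 4, 4 and 8 counts in WT and 4, 6, 3 and 0 counts in Tardbp KO.

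The libraries are from whole mammary glands of C57BL/6 mice on lactation day 1 (L1), 3 of Tardbp wt/wt mice (WT1 to WT3) and 4 of Tardbp fl/fl mice (KO1 to KO4). The mice of both groups carry WAP-Cre, a Cre recombinase under the promoter of the gene of whey acidic protein. This promoter is active in luminal epithelial cells from mid-pregnancy into lactation, so the deletion of exons 2 to 3 of Tardbp, the gene of the RNA-binding protein TDP-43, concerns those cells, while the whole gland also holds other cells that keep the gene. The ages of the mice are not given. The study counts its replicates as mice, so the spread between libraries holds animal as well as technical differences. The comparison asks how chemokine RNA differed between glands with and without the deletion, within a study of lactation failure.

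Chemokines are small secreted proteins that bind G protein-coupled receptors on leukocytes and other cells and direct their movement. Some are made constantly and place cells in tissues and lymphoid organs, such as Cxcl12 and Cxcl13. Others are induced during inflammation, such as Ccl2 and Cxcl10, and a group of epithelial chemokines, among them Cxcl14, Cxcl16 and Cxcl17, is made at body surfaces and in glands. Many lie in gene clusters, and the 38 genes were spread over 8 chromosomes, with 12 on chromosome 11 and 10 on chromosome 5.

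Library totals lay between 36007737 and 42811337 counts. Levels are CPM after TMM scaling, that is counts scaled to a fixed library total, which sets libraries to a common scale through the bulk of genes. Its factors were 0.781 to 0.909 in WT and 1.00 to 1.23 in Tardbp KO. The gene-level count of Tardbp was 187 ± 32.6 CPM in WT (SD, n = 3) and 188 ± 28.2 CPM in Tardbp KO (SD, n = 4), and since it sums all exons and all cells it does not check the deletion of 2 exons. Markers of luminal epithelium were present in every library, with Krt8 at 407 to 819 CPM. The libraries KO1 and KO3 stood apart by the genes of B cells. The 6 markers summed to 146 CPM in KO1, 208 CPM in KO3, 48.5 CPM in KO4 and 4.72 CPM in KO2. In the WT libraries they summed to 2.41 to 3.002 CPM. Results of the chemokine genes at an unadjusted p under 0.05, and their count and median, are therefore given with and without KO1 and KO3. This was a choice made after seeing the data. The fits without KO1 and KO3 keep KO4 and are not free of the B cell difference. Receptors, inducers and cell markers are given with all libraries only. The RNA of a whole gland cannot tell fewer cells of a type from less RNA per cell.

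The largest fitted differences among the chemokine genes were those of Cxcl13, Ccl22 and Ccl17, and the bases just before their annotated starts are shown so that they can be read beside their levels. They were taken from the RefSeq promoter table of assembly GRCm38.p6, located by exact match in NCBIM37, the assembly of the counts, and end before the first exon of the annotation used for counting. All 3 are on the plus strand, read 5′ to 3′: Ccl22 at chr8:97269334-97269489, Ccl17 at chr8:97334103-97334352 and Cxcl13 at chr5:96385708-96385944. Capitals mark a match to GGGANATTT, a pattern related to sites bound by the NF-kB subunit RelB and chosen with the Cxcl13 sequence in view.
Ccl22: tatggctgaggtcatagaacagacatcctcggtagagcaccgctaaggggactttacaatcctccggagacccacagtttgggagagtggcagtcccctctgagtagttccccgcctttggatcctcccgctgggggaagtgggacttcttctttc
Ccl17: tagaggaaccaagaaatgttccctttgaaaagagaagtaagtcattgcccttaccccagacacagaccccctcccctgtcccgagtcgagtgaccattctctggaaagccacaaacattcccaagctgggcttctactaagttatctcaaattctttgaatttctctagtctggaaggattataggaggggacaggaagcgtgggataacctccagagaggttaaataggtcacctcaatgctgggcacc
Cxcl13: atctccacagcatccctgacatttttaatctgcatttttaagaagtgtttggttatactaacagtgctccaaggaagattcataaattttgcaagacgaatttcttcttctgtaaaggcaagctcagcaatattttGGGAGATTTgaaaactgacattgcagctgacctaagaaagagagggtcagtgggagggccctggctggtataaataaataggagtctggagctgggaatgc

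In all, 3 patterns were searched on both strands in the 250 bases before the RefSeq start of the 26 chemokine genes found in that table. GGGANATTT was in the stretch of 1 of them, Cxcl13, and in those of 1.25% of all genes in the table. GGGNNTTTC, a pattern related to classical NF-kB sites, was in 8 of the 26, namely Ccl20, Ccl27b, Ccl9, Cxcl1, Cxcl2, Cxcl3, Cxcl9 and Xcl1, and in 4.35% of all genes. GAAANNGAA, a pattern related to interferon response elements, was in 6, namely Ccl1, Ccl19, Ccl3, Cxcl10, Cxcl14 and Cxcl9, and in 8.18% of all genes. A match describes letters only.

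Across the family, most chemokine genes read higher in Tardbp KO and none met the limits of the study. Of the 27 genes tested, 21 had a higher and 6 a lower fitted level in Tardbp KO. Their median log2 fold change was 0.52, against 0.05 over all 17175 genes tested. By edgeR's quasi-likelihood test, 0 chemokine genes were called at an adjusted p under 0.01 with an absolute log2 fold change above 1, and so were 0.0% of all genes. At an unadjusted p under 0.05, 7 of the 27 were higher, where 10.7% of all genes were, and 0 were lower, where 10.7% of all genes were too. The 7 are Cxcl13, Ccl22, Ccl17, Cxcl16, Ccl5, Cx3cl1 and Ccl8, and the members of such a list are not independent of each other. In 0 of the 27 did all KO libraries lie above all WT libraries, as they did in 9.07% of all genes, and in 0 did they all lie below, as in 9.62%. By edgeR's exact test, which called 1.04% of all genes higher and 1.44% lower, only Ccl22 was called (adjusted p = 0.00937), and by DESeq2, which called 1.69% higher and 1.64% lower, only Cxcl13 (adjusted p = 0.00751). Without KO1 and KO3, 2 of the 27 were higher at an unadjusted p under 0.05, Cxcl16 and Cxcl17, beside 5.46% of all genes, and the median was 0.50.

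**Figure D1:**
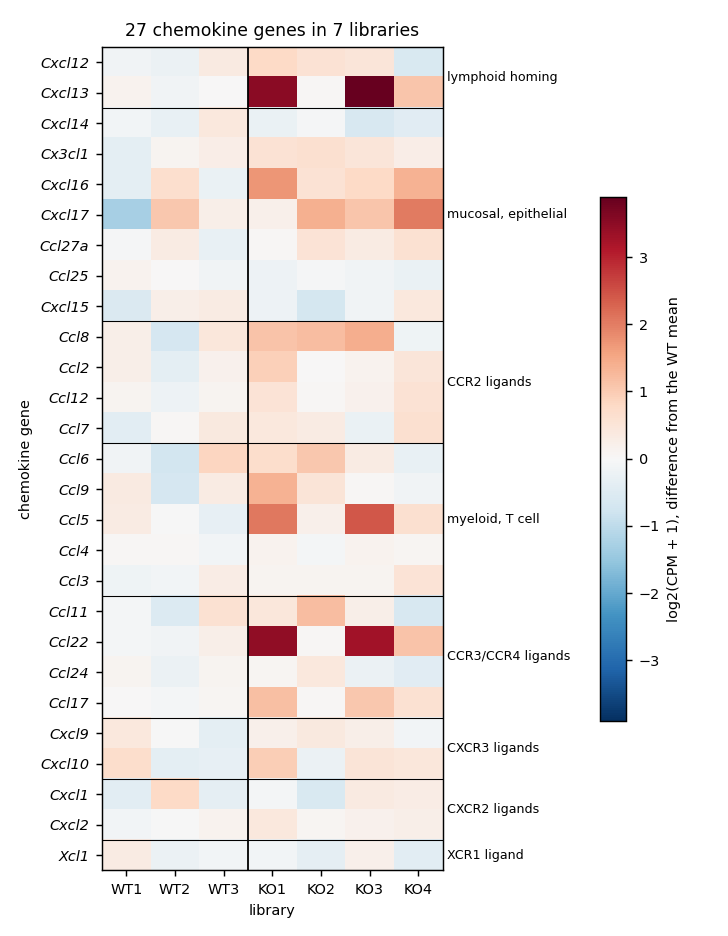
Heat map of the 27 chemokine genes tested (rows, grouped by role) in the 7 libraries (columns). Colour gives log2(CPM + 1) minus its WT mean, red for higher and blue for lower, and the strongest red is in KO1 and KO3 for Cxcl13 (11.8 and 15.6 CPM) and Ccl22 (19.2 and 16.6 CPM), with KO2 near WT for both.

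Per kb of exon length, the scale on which levels of different genes can be compared, Cxcl14 was far above the rest at a mean of 140 CPM per kb over the 7 libraries. Next came Cxcl17 at 29.7, Ccl6 at 15.4, Cx3cl1 at 12.9, Ccl8 at 12.4, Cxcl16 at 11.1, Cxcl12 at 10.2 and Ccl5 at 10.1 CPM per kb. The library ranges of the genes from Cxcl17 to Ccl5 overlapped, so their order is not resolved. At the other end, Cxcl2, a neutrophil attractant, was at 0.0993 CPM per kb. Cxcl14 alone held 50.7% to 57.6% of the counts of the 38 genes in WT and 33.1% to 42.7% in Tardbp KO, and these ranges did not overlap (no test). Such a share also depends on the levels of the other members, and the level of Cxcl14 itself overlapped between the groups. The summed level of the family was 478, 462 and 659 CPM in WT and 700, 648, 561 and 499 CPM in Tardbp KO, and overlapped between the groups.

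**Figure D2:**
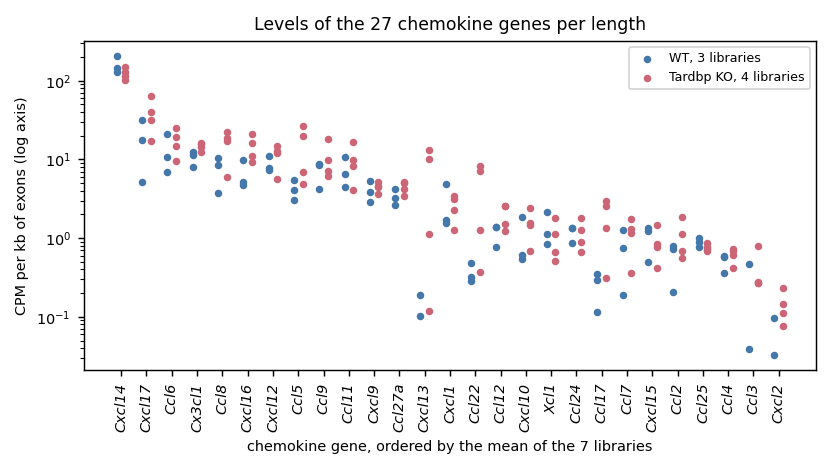
Level of each of the 27 chemokine genes in CPM per kb of exons, on a log axis, ordered by the mean of 7 libraries, with WT libraries in blue and Tardbp KO libraries in red. Cxcl14 leads with a mean of 140 CPM per kb, Cxcl13, Ccl22 and Ccl17 are each low in 3 WT libraries and in KO2, and the counts of 0 (Cxcl13 in WT2, Ccl3 and Cxcl2 in WT1) are not drawn.

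Among the chemokines of lymphoid organs, Cxcl13, which draws B cells into follicles through the receptor Cxcr5, was almost absent from WT and reached high levels in KO1 and KO3. Cxcl13 (ENSMUSG00000023078, chr5:96385945-96390086) had 0.226, 0 and 0.119 CPM in WT1, WT2 and WT3, from 6, 0 and 4 counts. The count of 0 allows up to 0.0894 CPM if counts are independent. Mates were counted separately, so a read pair can be counted more than once and the true bound is higher. In Tardbp KO, Cxcl13 had 11.8, 0.138, 15.6 and 1.33 CPM in KO1 to KO4, from 443, 6, 761 and 50 counts. KO1, KO3 and KO4 were thus above every WT library, and KO2 lay within their range. The fitted log2 fold change was 6.00 ± 1.66 (SE), with an adjusted p of 0.10 by edgeR and an exact permutation p of 0.114, and it rests on 10 counts in WT. It was 6.85 without WT1, 5.39 without WT2 and 5.28 without KO3. Without KO1 and KO3 it was 2.69 ± 1.22 (SE; adjusted p = 0.41 by edgeR). Within lane 4, by the lane codes in the labels the only lane with libraries of both groups, the counts were 0 in WT2 against 761 in KO3 and 50 in KO4.

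Cxcl12, made by stromal cells and bound by Cxcr4, was the other member of this group that was tested. It had 63.9, 60.1 and 90.5 CPM in WT and 120, 105, 97.7 and 46.5 CPM in Tardbp KO, with KO4 the lowest of all libraries. The log2 fold change was 0.37 ± 0.30 (SE; adjusted p = 0.53 by edgeR). Ccl19 and Ccl21a, which guide T cells and dendritic cells through Ccr7, had too few counts to be tested. Ccl19 had 0, 0 and 2 counts in WT and 10, 2, 18 and 2 counts in Tardbp KO, and Ccl21a had 0 counts in each WT library and 3, 0, 17 and 2 counts in Tardbp KO. KO1 and KO3 gave the most counts for both. Of the 100-base windows of the Ccl19 transcript 96.1% recur in transcripts of other annotated genes, and of Ccl21a 99.7%, in Ccl21b and Ccl21c among others. Since reads that map to several places were not counted, the counts of these genes are uncertain and may miss reads. Ccl21b had 2 counts, all in WT2, and Ccl21c had 0 counts in WT and 6, 0, 4 and 2 counts in Tardbp KO.

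Ccl22 and Ccl17, the ligands of the receptor Ccr4 of regulatory and type 2 helper T cells and typical products of dendritic cells, had the next largest differences. Ccl22 (ENSMUSG00000031779, chr8:97269490-97275599) had 0.752, 0.655 and 1.13 CPM in WT and 19.2, 0.874, 16.6 and 2.99 CPM in Tardbp KO. KO1, KO3 and KO4 lay above WT and KO2 within it, as for Cxcl13. Its log2 fold change was 3.54 ± 1.00 (SE; adjusted p = 0.11 by edgeR, exact permutation p = 0.114), and 1.18 ± 0.58 without KO1 and KO3 (adjusted p = 0.45 by edgeR). Ccl17 (ENSMUSG00000031780, chr8:97334353-97335935) had 0.150, 0.0596 and 0.178 CPM in WT, from 4, 2 and 6 counts, and 1.54, 0.161, 1.33 and 0.693 CPM in Tardbp KO, from 58, 7, 65 and 26 counts. Again KO2 alone stayed within WT. For Ccl17 the log2 fold change was 2.82 ± 0.83 (SE; adjusted p = 0.11 by edgeR), and 1.69 ± 0.87 without KO1 and KO3 (adjusted p = 0.46 by edgeR). Within lane 4, the log2 differences of Ccl22 and Ccl17 were 3.90 and 4.02, with no test.

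Between these genes on chromosome 8 lies Cx3cl1, the membrane-bound chemokine fractalkine, 20.3 kb from Ccl22 and 28.0 kb from Ccl17. Cx3cl1 (chr8:97295909-97306323) had 29.7, 41.8 and 46.3 CPM in WT and 57.8, 60.0, 54.0 and 46.1 CPM in Tardbp KO. Here KO2 was the highest library, and only KO4 fell within the WT range. Its log2 fold change of 0.47 ± 0.18 (SE; adjusted p = 0.18 by edgeR) was the smallest among the 7 genes under an unadjusted p of 0.05, and its value of 0.43 without KO1 and KO3 was close to it. Within lane 4 it was 0.26, with no test.

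**Figure D3:**
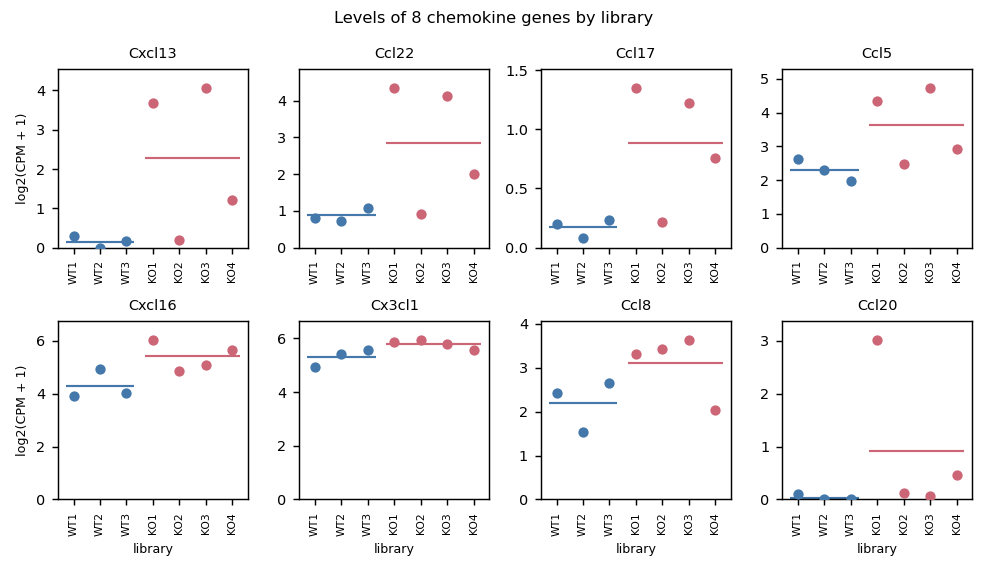
Levels of 8 chemokine genes as log2(CPM + 1), 1 point per library, with WT in blue and Tardbp KO in red and a line at the mean of each group. Cxcl13, Ccl22, Ccl17 and Ccl5 are highest in KO1 and KO3 and near WT in KO2, Cxcl16, Cx3cl1 and Ccl8 have other orders, and Ccl20 reaches 7.06 CPM in KO1 alone.

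Ccl11 and Ccl24, eotaxins that act through Ccr3, did not share the pattern of Ccl22. Ccl11 had 7.07, 4.86 and 11.7 CPM in WT and 10.6, 18.3, 8.91 and 4.45 CPM in Tardbp KO, and Ccl24 had 1.73, 1.13 and 1.72 CPM in WT and 1.65, 2.35, 1.15 and 0.853 CPM in Tardbp KO. In both, KO2 was the highest library and KO4 the lowest. The adjusted p was 0.64 for Ccl11 and 0.98 for Ccl24 by edgeR. Ccl1 had at most 6 counts in a library, and Ccl26 had none in any.

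Of Ccl3, Ccl4, Ccl5, Ccl6 and Ccl9, which attract myeloid cells and activated T cells, Ccl5 had the largest fitted difference. Ccl5 (ENSMUSG00000035042, chr11:83339280-83344020), a product of activated T cells and natural killer cells among others, had 5.19, 3.90 and 2.91 CPM in WT and 19.3, 4.62, 25.3 and 6.64 CPM in Tardbp KO. KO3 and KO1 were again the highest libraries, KO4 was just above WT and KO2 within it. The log2 fold change was 1.81 ± 0.58 (SE; adjusted p = 0.14 by edgeR, exact permutation p = 0.114), and 0.50 ± 0.34 without KO1 and KO3 (adjusted p = 0.57 by edgeR). Within lane 4 it was 2.03, with no test. Ccl6 and Ccl9, neighbours 9.25 kb apart on chromosome 11 that myeloid cells make, varied as much within WT as between groups. Ccl6 had 19.3, 12.6 and 38.4 CPM in WT and 34.6, 45.1, 26.9 and 17.04 CPM in Tardbp KO, with an adjusted p of 0.62 by edgeR. Ccl9 had 26.8, 12.8 and 26.1 CPM in WT and 54.9, 30.1, 21.7 and 19.0 CPM in Tardbp KO, with an adjusted p of 0.50 by edgeR. Ccl3 and Ccl4, the macrophage inflammatory proteins, were between 0 and 0.613 CPM in every library.

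The 4 genes listed here as ligands of Ccr2, the receptor of inflammatory monocytes, all had a higher fitted level in Tardbp KO. This list was written by name, and which receptors its members use in mice was not examined. Only 1 of the 4 was at an unadjusted p under 0.05. That was Ccl8, with 4.36, 1.91 and 5.29 CPM in WT and 8.89, 9.66, 11.3 and 3.09 CPM in Tardbp KO. Only KO4 lay within the WT range, unlike in Ccl22, where it was KO2. The log2 fold change of Ccl8 was 1.10 ± 0.48 (SE; adjusted p = 0.23 by edgeR, exact permutation p = 0.171), and without KO1 and KO3 it was 0.73. Within lane 4 the difference was 1.92, with no test. Ccl2, Ccl7 and Ccl12 were between 0.150 and 2.10 CPM, with log2 fold changes of 0.87, 0.62 and 0.74, none at an unadjusted p under 0.05.

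Epithelial and mucosal chemokines made up most of the chemokine RNA of the gland. Cxcl14, which acts on dendritic cells and monocytes, had 266, 234 and 380 CPM in WT and 238, 277, 186 and 212 CPM in Tardbp KO. Its groups overlapped, and its log2 fold change was -0.36 ± 0.21 (SE; adjusted p = 0.37 by edgeR). Cxcl16, a membrane-bound ligand of Cxcr6, had 14.2, 29.8 and 15.5 CPM in WT and 63.9, 28.2, 33.0 and 49.5 CPM in Tardbp KO. KO1 and KO4 were the highest libraries, and KO2 was below WT2. The log2 fold change of Cxcl16 (ENSMUSG00000018920, chr11:70267485-70273486) was 1.14 ± 0.35 (SE; adjusted p = 0.13 by edgeR, exact permutation p = 0.114), or 0.97 ± 0.38 without KO1 and KO3. Within lane 4 it was 0.47, with no test, and 18.3% of its exon bases are shared with Zmynd15, where reads were not counted. Cxcl17, a chemokine of mucosal epithelia, had 3.91, 24.3 and 13.3 CPM in WT and 13.03, 30.6, 24.5 and 48.6 CPM in Tardbp KO. KO4 was the highest and WT1 the lowest library, and the log2 fold change was 1.07 ± 0.59 (SE; adjusted p = 0.33 by edgeR). It was 1.75 without WT2 (unadjusted p = 0.0223, adjusted p = 0.13), 0.63 without WT1, and 0.59 within lane 4, with no test.

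Ccl27a, best known from skin, had 7.63, 10.1 and 6.33 CPM in WT and 8.23, 11.9, 10.01 and 12.4 CPM in Tardbp KO, with a log2 fold change of 0.41 ± 0.23 (SE; adjusted p = 0.36 by edgeR), and 26.1% of its 100-base windows recur in other genes. Ccl25, a gut and thymus chemokine, had 2.71, 2.38 and 2.08 CPM in WT and 1.96, 2.30, 2.05 and 1.84 CPM in Tardbp KO. Cxcl15, also called lungkine, had 1.05, 2.62 and 2.85 CPM in WT and 1.65, 0.897, 1.80 and 3.09 CPM in Tardbp KO. The groups overlapped in all 3 of these genes. The tested Ccl25 gene shares 41.6% of its exon bases with the second Ccl25 identifier, which had no count in any library, and reads over both were not counted, so its level is uncertain. Ccl27b had 1 count, in WT2. Ccl20, the ligand of Ccr6, did not pass the filter on low counts, because it had 2, 0 and 0 counts in WT and 266, 4, 2 and 14 counts in Tardbp KO. Nearly all of its counts were thus from KO1.

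Both interferon-induced ligands of Cxcr3, a receptor of type 1 T cells, overlapped between the groups. Cxcl9 had 15.6, 11.1 and 8.44 CPM in WT and 13.2, 15.1, 13.5 and 10.6 CPM in Tardbp KO, and every KO library lay within the WT range. Cxcl10 had 2.86, 0.834 and 0.921 CPM in WT and 3.64, 1.06, 2.395 and 2.21 CPM in Tardbp KO, with WT1 above 3 of the 4 KO libraries. By edgeR, the log2 fold change was 0.16 for Cxcl9 (adjusted p = 0.74) and 0.61 for Cxcl10 (adjusted p = 0.57). That of Cxcl10 depended on single libraries. It was 1.401 without WT1 (unadjusted p = 0.0295, adjusted p = 0.36 by edgeR) and 1.46 within lane 4, with no test. In the other direction, it was 0.31 without KO1 and 0.10 without KO1 and KO3 (adjusted p = 0.96 by edgeR). Ligands of Cxcr2, the receptor of neutrophils, were low. Cxcl1 had 1.504, 4.68 and 1.60 CPM in WT and 2.18, 1.196, 3.23 and 3.04 CPM in Tardbp KO, and Cxcl2 had at most 0.425 CPM. The log2 fold change of Cxcl1 was -0.11, and 0.63 without WT2. Cxcl3 and Cxcl5 had at most 5 counts in a library. Xcl1, a product of T cells and natural killer cells, was between 0.267 and 1.13 CPM, with a log2 fold change of -0.42 ± 0.55 (SE; adjusted p = 0.71 by edgeR).

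**Figure D4:**
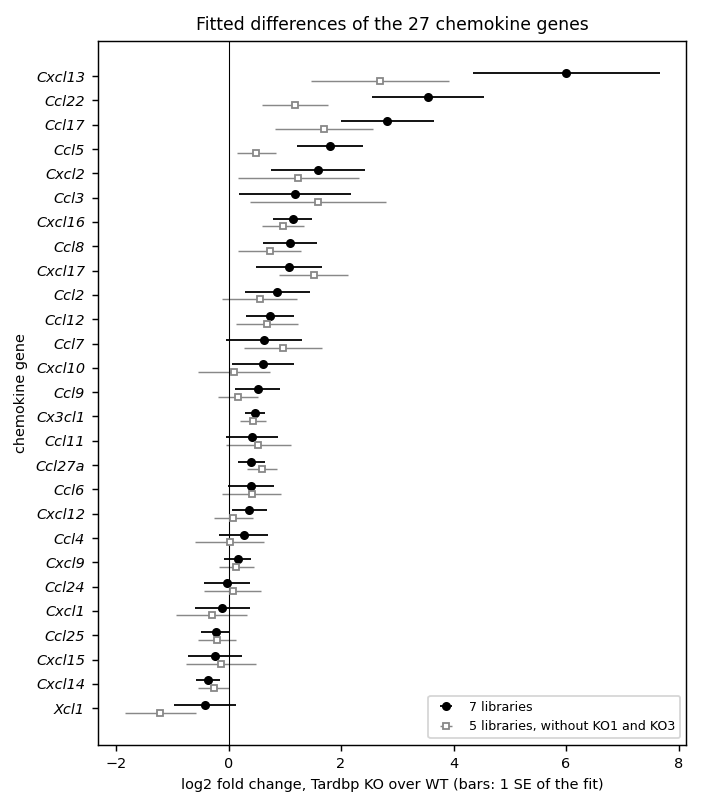
Log2 fold change of Tardbp KO over WT for the 27 chemokine genes tested, with bars of 1 SE of the fit, from 7 libraries (filled) and from the 5 libraries without KO1 and KO3 (open). Cxcl13 moves from 6.00 to 2.69, Ccl22 from 3.54 to 1.18 and Ccl5 from 1.81 to 0.50, while Cxcl16 moves from 1.14 to 0.97.

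The receptors followed a like order of libraries for those of lymphocytes. Of 18 chemokine receptor genes, 15 were tested, and 7 were higher at an unadjusted p under 0.05 (Ccr4, Ccr6, Ccr7, Cxcr3, Cxcr4, Cxcr5 and Xcr1) and 0 lower, where 10.7% of all genes were in each direction. edgeR's quasi-likelihood test called 0, its exact test 2 and DESeq2 3, all higher, where the exact test called 1.04% and DESeq2 1.69% of all genes higher. The same shares of all genes apply to the lists that follow. The median log2 fold change of the receptors was 1.26. Cxcr5, the receptor of Cxcl13 on B cells, had 1.54, 1.04 and 1.25 CPM in WT and 10.2, 1.33, 15.0 and 3.23 CPM in Tardbp KO. Ccr7, the receptor of Ccl19 and Ccl21, had 0.752, 1.34 and 1.55 CPM in WT and 19.7, 1.54, 29.5 and 4.75 CPM in Tardbp KO. Ccr4, the receptor of Ccl17 and Ccl22, had 0.0752, 0.179 and 0 CPM in WT and 1.35, 0.138, 1.62 and 0.213 CPM in Tardbp KO. All of these were highest in KO3, then KO1, and KO2 lay within the WT range. Among receptors of myeloid cells, the log2 fold change was -0.02 for Ccr1, 0.58 for Ccr2, 0.27 for Cx3cr1 and 2.51 for Ccr3 of eosinophils, none at an unadjusted p under 0.05. Xcr1 of dendritic cells, counted above, was at 2.24. Cxcr2 of neutrophils, too low to be tested, had 0.955 and 0.901 CPM in KO1 and KO3 and at most 0.138 CPM elsewhere. The 5 atypical receptor genes tested, whose proteins do not signal in the usual way, had 2 at an unadjusted p under 0.05, both higher, Cxcr7 and Ccrl2 (log2 fold changes 0.59 and 0.84).

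Lymphotoxin and the non-canonical NF-kB pathway, which induce Cxcl13, Ccl19 and Ccl21 in lymphoid organs, had 7 genes tested. Of these 5 were higher at an unadjusted p under 0.05, 0 were lower and 0 were called, against 1 called by edgeR's exact test and 2 by DESeq2. Ltb, the gene of lymphotoxin beta, had 4.06, 2.62 and 2.47 CPM in WT and 53.6, 2.51, 65.7 and 15.5 CPM in Tardbp KO. Relb had 12.4, 18.4 and 19.1 CPM in WT and 94.3, 25.2, 38.9 and 38.4 CPM in Tardbp KO. With Nfkb2 and Map3k14 it was among 3 genes of the list with every KO library above every WT library, where 9.07% of all genes were. Relb and Nfkb2 were highest in KO1, Ltb in KO3. Among 10 genes of inflammatory induction, 9 were tested, and Tnf, Nfkb1 and Rela were higher at an unadjusted p under 0.05. Il6 had no count in any library, Il1b read 0.640 to 1.47 CPM, and the platelet chemokine Pf4, outside the family by its symbol, read 5.12 to 12.5 CPM in WT and 4.27 to 13.7 CPM in Tardbp KO.

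Markers of lymphocytes moved with Cxcl13, Ccl22, Ccl17 and Ccl5. All 6 B cell markers and all 7 T cell markers were higher at an unadjusted p under 0.05, with 0 called by edgeR's quasi-likelihood test. The exact test called 5 of the B cell markers and 0 of the T cell markers, and DESeq2 called 5 and 3. The B cell sum was 2.41 to 3.002 CPM in WT and 146, 4.72, 208 and 48.5 CPM in Tardbp KO, and the T cell sum was 9.27 to 19.2 CPM in WT and 98.9, 14.4, 135 and 22.03 CPM in Tardbp KO. Markers of follicles and high endothelial venules did the same in part. Their sum was 9.62 to 14.6 CPM in WT and 68.3, 9.32, 69.6 and 15.6 CPM in Tardbp KO. Cr2, a receptor of B cells and follicular dendritic cells, was at 17.2 and 22.6 CPM in KO1 and KO3 and at most 0.238 CPM in WT. Much of the sum in KO1 and KO3 came from genes that B cells also express, among them Cr2. It is therefore not separate from the B cell sum. Chst4, an enzyme of high endothelial venules, had 0 CPM in WT and 1.51, 0, 3.01 and 0.160 CPM in Tardbp KO, whereas Madcam1 was highest in KO1 and lowest in KO3. The part of these cells in the levels of Cxcl13, Ccl22, Ccl17 and Ccl5 was not tested.

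Among the other marker lists, macrophage markers had 0 of 6 genes at an unadjusted p under 0.05, and 5 of them other than Cd14 were highest in KO2. Dendritic cell markers had 2 of 5, Flt3 and Clec9a, both higher and both highest in KO3 and KO1, with a sum of 28.9 to 29.8 CPM in WT and 41.1, 39.6, 43.6 and 28.8 CPM in Tardbp KO. Neutrophil markers had 1 of 4, S100a8, with a log2 fold change of -1.03. The other 3 had positive log2 fold changes, 2.13 for S100a9, 1.37 for Retnlg and 0.91 for Csf3r, and the defining marker Ly6g was at 0 in 6 of the 7 libraries. Fibroblast sums ran from 376 CPM in KO4 to 1567 CPM in KO2, the libraries in which Ccl11 was lowest and highest. In none of the lists of fibroblasts, myoepithelium, adipocytes and lymphatic and blood endothelium was a gene at an unadjusted p under 0.05. Luminal epithelium had 2 of 5, Krt8 higher and Elf5 lower, with a sum of 2500 to 3100 CPM in WT and 2423 to 3553 CPM in Tardbp KO. Their part in any chemokine level was not tested.

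**Figure D5:**
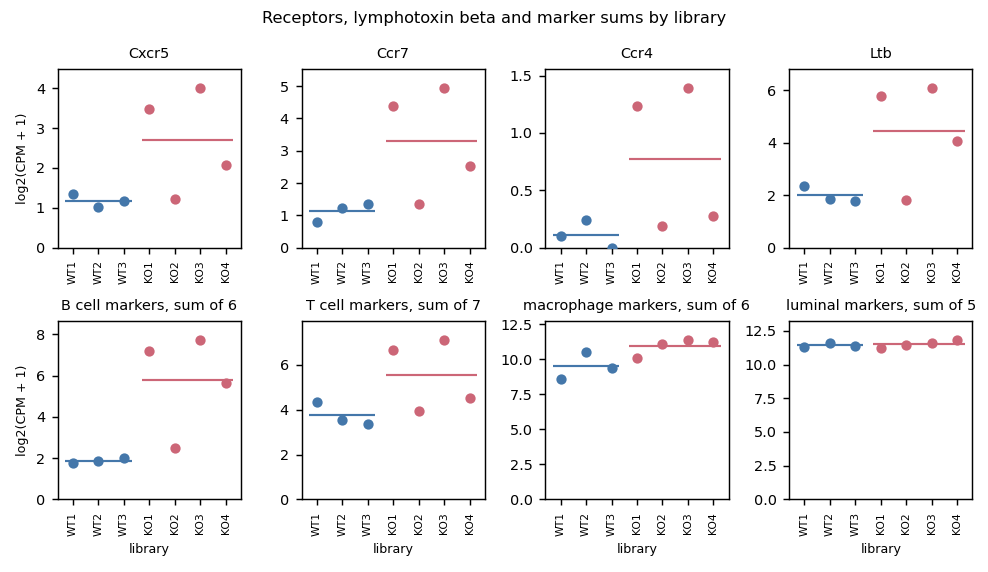
Levels of 3 chemokine receptors and of Ltb, and summed levels of 4 marker lists, as log2(CPM + 1), 1 point per library with a line at each group's mean, WT in blue and Tardbp KO in red. Cxcr5, Ccr7, Ccr4, Ltb and the B cell and T cell sums are highest in KO3 and KO1 with KO2 near WT, while the luminal sum lies between 2423 and 3553 CPM throughout and the macrophage sum is carried by Cd14.

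KO1 was the highest of the 7 libraries for 9 of the 27 chemokine genes, where it was the highest for 14.6% of all genes tested. It was followed by KO4 with 6 (15.5% of all genes), KO2 with 4 (14.4%) and KO3 with 3 (15.0%). WT1, WT2 and WT3 had 3, 1 and 1, and were the highest for 20.9%, 9.93% and 9.61% of all genes. The lanes of KO1, KO2, WT1 and WT3 each held no other library analysed, so for these the lane and the library cannot be told apart.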

How the data were processed

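Total RNA of whole mammary glands on lactation day 1 was made into TruSeq libraries and sequenced in pairs. The authors mapped reads to mouse NCBIM37 with STAR (2.4.2a in the methods, 2.5.2a in the submitters' processing notes) and counted them on GENCODE exons with featureCounts 1.4.6-p5. The deposited values are raw counts per gene; strand was not used, mates counted separately, and reads mapping to several places or over several genes were not counted. A further library named in the file's command was not analysed here.

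Libraries were grouped by genotype label. The test used 17175 genes, those with 5 or more counts in 4 or more libraries, after leaving out 37 mitochondrial and 580 ribosomal genes. edgeR 4.0.16 in R 4.3.3 compared the groups with TMM scaling and the quasi-likelihood test, with Benjamini-Hochberg adjustment over all kept genes. Genes were called by the limits of the study, which are an adjusted p below 0.01 with an absolute log2 fold change over 1. Named genes were also compared on log2(CPM + 1) by an exact permutation test (2-sided, 35 splits, smallest p 0.0286). DESeq2 1.42.0, edgeR's exact test, other scalings, other filters, a replicate block and left-out libraries were alternatives. Values per library are given for tested genes with a mean of at least 1 CPM or an unadjusted p under 0.05, and other genes come from written lists, of which 1 gene is not reported here by itself. Members and lists were chosen with earlier results of these data known.

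Library totals of 36007737 to 42811337 counts put the floor of 3 counts at 0.0614 to 0.113 CPM, for counting error only. This floor takes counts as independent, and with mates counted separately the true floor is higher. Motifs were searched in RefSeq promoters (GRCm38.p6) and upstream sequences located in NCBIM37.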

Additional observations from a re-analysis of the deposited data

Results flagged for a closer look

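Ccl20 was flagged because 1 library stood far from the others of its group. It had 7.06 CPM in KO1 (266 counts), and the next KO library, KO4, had 0.373 CPM, so that this gap was 0.953 of the range of the 4 KO libraries and above Dixon's critical value at 95%. The WT libraries had 2, 0 and 0 counts. KO1 was also the highest library for Nfkbia (291 CPM, against 72.6 to 103 CPM in the others), Nfkb2 (203 CPM) and Relb (94.3 CPM), and their part in the level of Ccl20 was not tested. This check was made in 23 genes, of which chance flags about 1 in 20. They were the 20 genes with values per library by the rule, and Ccl20, Ccl19 and Ccl21a, added by name. Since Ccl20 was among those added outside the rule, that rate cannot be applied to its flag.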

How the results depend on the processing

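At the limits of the study, the count of 0 chemokine genes called held under every quasi-likelihood setting run. It became 1 with edgeR's exact test (Ccl22) and 1 with DESeq2 (Cxcl13). In the main fit it also held at an adjusted p under 0.05. That limit was not counted over the other fits, and some genes passed it there. Examples by edgeR's quasi-likelihood test are Cxcl13 with the replicate block (6.30, adjusted p = 0.021) and Cxcl16 without WT2 (1.56, adjusted p = 0.043). No chemokine gene was lower at an unadjusted p under 0.05 in any setting. With library size only, 13 of 27 were higher at that limit and the median log2 fold change was 0.91, but the median of all genes shifted to 0.42 and 30.8% of them were higher, and Cxcl14 (0.0021), Cxcl15 (0.078), Cxcl1 (0.23), Ccl24 (0.36) and Ccl25 (0.16) turned positive. Without Tardbp KO replicates 1 and 3 together, 2 genes were higher beside 5.46% of all genes, and Ccl24 read 0.072. Leaving out 1 replicate at a time gave 5 to 9 genes higher (5 without KO2, 9 without WT3, beside 9.36% and 7.01% of all genes) and medians of 0.42 to 0.83 (without WT1 and WT3). In these, Ccl24 ranged from -0.33 to 0.14 (0.070 without WT1 or WT3, 0.083 without KO3, 0.14 without KO4), Cxcl1 from -0.38 to 0.63 (0.12 without KO2), Cxcl15 from -0.61 to 0.0092, and Cxcl9 from -0.029 to 0.42. The replicate numbers did not pair the libraries (correlations of deviations 0.44, 0.07 and -0.08 for numbers 1, 2 and 3). A fit with the number as a replicate block, in which KO4 has no partner, gave 9 genes higher beside 12.8% of all genes, a median of 0.67, 0 called and 0.13 for Ccl24. Without a filter on low counts, 10 of 36 were higher, beside 8.76% of all genes. Lane 4 gave values without a test, with a median of 0.48. The remaining settings changed neither direction nor call. Low counts limit Cxcl13, Ccl17, Ccl3 and Cxcl2, whose WT libraries had at most 12 counts.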
